A study of Mus musculus with 8 samples.

Results

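Iron handling was examined through 10 genes in hematopoietic stem cells (HSCs), the cells from which all blood lineages arise. The genes were Tfrc, Slc11a2, Steap3 and Slc25a37 for iron import, Fth1, Ftl1 and Ncoa4 for storage, Slc40a1 for export, and Aco1 and Ireb2 for sensing. They were named by symbol for these known roles, with earlier results of these data known. All 10 were among the 15142 genes listed in the 3 expression tables, and all 10 passed the filter on low values that left 11347 genes for testing.

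The mice were wild-type C57BL/6 animals of both sexes, 8 to 12 weeks old per the study's methods. Phenylhydrazine (PHZ), an agent that lyses red cells and leaves the animal with acute hemolytic anemia, was injected intraperitoneally at 60 mg/kg on 2 days, and cells were sorted 3 days after the last injection. The groups were bone marrow HSCs of mice labelled as given PBS (control BM HSC, n = 3), bone marrow HSCs of PHZ-treated mice (PHZ BM HSC, n = 3) and splenic HSCs of PHZ-treated mice (PHZ SP HSC, n = 2). HSCs were defined by the surface phenotype lineage-negative, Sca-1+, c-kit+, CD150+ and CD48 negative or low. Splenic HSCs of mice without PHZ were not analysed here, so organ and treatment cannot be told apart when splenic HSCs are set against control BM HSC. The study states that its sample numbers are independent animals but gives none for the RNA-seq, so whether each library came from a separate mouse is not stated, and p-values measure only the spread between these libraries.

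Cells take up iron bound to transferrin through the transferrin receptor. The iron is released in the endosome, reduced and carried into the cytoplasm, from where it goes to mitochondria for heme and iron-sulfur clusters, is stored inside ferritin, or is exported by ferroportin. Balance is kept largely after transcription: when iron is scarce, iron regulatory proteins bind short RNA hairpins called iron-responsive elements, which stabilizes the transferrin receptor mRNA through its 3′ UTR and blocks translation of ferritin and ferroportin through their 5′ UTRs. Transferrin receptor transcription is also raised during erythropoiesis, because developing red cells need iron for hemoglobin.

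The iron-responsive elements are shown because they are the shared sequence through which several of these mRNAs are known to respond to iron. GENCODE M21 transcripts on build GRCm38 were searched on the RNA strand for a C, any 5 bases, the hexaloop CAGTGN and 5 bases that pair with those before the loop, G-T pairs allowed. At least 4 of the 5 positions of the lower stem also had to pair. Of 21877 protein-coding genes, 17 (0.0777%) held such an element in a UTR, among them 4 of the 10 genes. Capitals mark the bulged C and the hexaloop of each 27-base element.
Tfrc 3′ UTR, chr16:32631220-32631246, plus strand: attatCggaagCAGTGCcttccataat
Tfrc 3′ UTR, chr16:32631599-32631625, plus strand: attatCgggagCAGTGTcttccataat
Tfrc 3′ UTR, chr16:32631664-32631690, plus strand: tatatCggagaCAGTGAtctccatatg
Tfrc 3′ UTR, chr16:32631711-32631737, plus strand: attatCgggaaCAGTGTttcccataat
Fth1 5′ UTR, chr19:9982733-9982759, plus strand: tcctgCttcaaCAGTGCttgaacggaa
Ftl1 5′ UTR, chr7:45459780-45459806, minus strand: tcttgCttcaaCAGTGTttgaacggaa
Slc40a1 5′ UTR, chr1:45925466-45925492, minus strand: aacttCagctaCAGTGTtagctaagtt

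The search found 4 elements in the 3′ UTR of Tfrc and 1 in the 5′ UTR of each of Fth1, Ftl1 and Slc40a1. The other 6 genes had no match to these letters and pairs in their annotated UTRs, Slc11a2 included, which is on the list of mRNAs known to carry such an element. A match is a description of the sequence, and binding was not measured.

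Expression was given as FPKM, which divides the fragments of a gene by its length and by the depth of the library, so levels can be compared between genes. Libraries held 8216167 to 13199736 reads, of which 43.3% to 48.6% fell on the ribosomal RNA precursor gene Rn45s, and 11400 to 12259 genes had at least 10 reads. For the HSC label, 12 HSC marker genes were read: none was at 0 in any library, and their summed level ranged from 445 to 601 FPKM with none past the threshold in any comparison. Kit, Ly6a and Slamf1 among them encode c-kit, Sca-1 and CD150, on which the cells were sorted, so their presence followed from the sort. Such levels cannot show whether other cells were also present. The library control BM HSC 1 had the lowest value of 5 of the 10 iron genes and the fewest genes with at least 10 reads. Fold changes were computed on log2(FPKM + 1), which understates the change of low genes, and tested with limma at an adjusted p of 0.05. In bulk RNA, a larger share of cells with an mRNA and more of it per cell cannot be told apart.

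Tfrc, which encodes the transferrin receptor (CD71), rose in splenic HSCs. It lies on chr16:32608896-32632794, plus strand. Its level was 0.645, 1.98 and 3.33 FPKM in the control BM HSC libraries, 3.58, 3.13 and 5.19 FPKM in PHZ BM HSC, and 9.47 and 11.3 FPKM in PHZ SP HSC. Both splenic libraries lay above all 6 marrow libraries, and the marrow groups overlapped.

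Mean Tfrc in control BM HSC was 1.99 ± 1.34 FPKM (SD, n = 3). The mean in PHZ BM HSC was 3.97 ± 1.08 FPKM (SD, n = 3), and that in PHZ SP HSC was 10.4 ± 1.31 FPKM (SD, n = 2). Against control BM HSC, Tfrc was 4.10-fold higher in PHZ SP HSC on the log2(FPKM + 1) scale (log2 fold change 2.04, SE 0.38, adjusted p = 0.0411). It was the only one of the 10 genes past the threshold, where 0.758% of all genes tested passed. Tfrc and Slc25a37, and from the wider lists Alas2, Ermap, Slc4a1 and Cldn13, are among the genes the study picked out on these samples, so their directions are not independent evidence.

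Against PHZ BM HSC, the log2 difference of Tfrc in PHZ SP HSC was 1.22 (95% interval 0.39 to 2.04), with an adjusted p of 0.177. Between the marrow groups, it was 0.82 in PHZ BM HSC over control BM HSC (95% interval 0.08 to 1.56, adjusted p = 0.243). Neither passed the threshold, although both intervals before adjustment lay above 0. None of the 10 genes passed in these 2 comparisons, in which 0.978% and 2.74% of all genes tested passed. Each group serves in 2 of the 3 comparisons, which are therefore not independent of each other.

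The Tfrc call was close to the threshold. It was lost when control BM HSC 2 (adjusted p = 0.0705), PHZ BM HSC 1 (0.0672), PHZ BM HSC 2 (0.0692), PHZ SP HSC 1 (0.195) or PHZ SP HSC 2 (0.138) was left out. It was also lost with a pseudocount of 0.1 (0.0763), with no filter on low values (0.0789) and with only the 2 groups in the fit (0.105). Without control BM HSC 1, where Tfrc was lowest with 39 reads, the log2 fold change was 1.66 and the adjusted p was 0.0437.

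**Figure D1:**
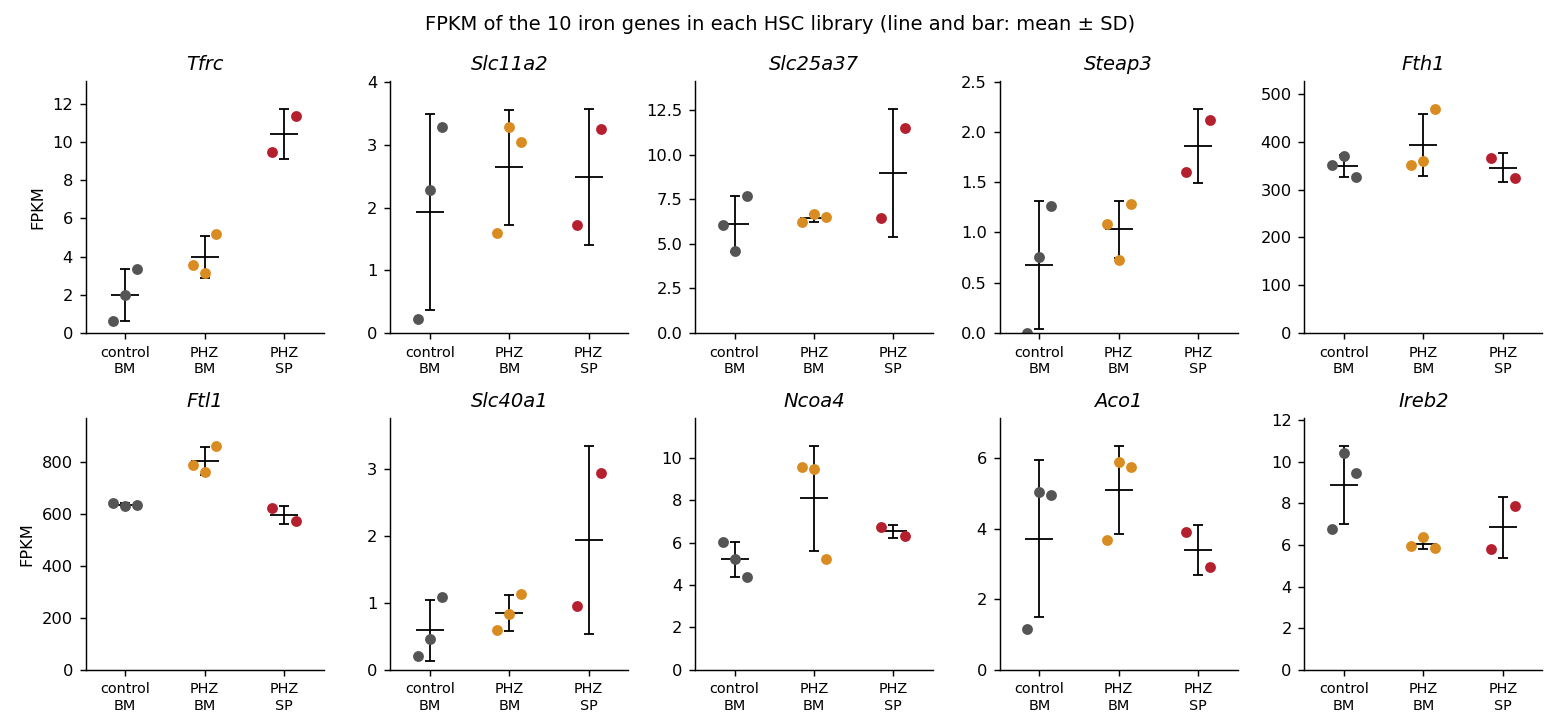
Level of each of the 10 iron genes in FPKM (vertical axis, from 0) in every library of control BM HSC, PHZ BM HSC and PHZ SP HSC; points are libraries, and the line and bar give the mean ± SD. Tfrc lies at 9.47 and 11.3 FPKM in the splenic libraries and at 5.19 FPKM or less in the marrow, whereas Fth1 lies at 367 and 325 FPKM in the splenic libraries and at 326 to 469 FPKM in the marrow.

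The other import genes did not pass the test. Steap3, on chr1:120226414-120271081, minus strand, encodes the endosomal ferrireductase that reduces iron released from transferrin. It was listed at 0 in control BM HSC 1 and measured 0.755 and 1.27 FPKM in the other control libraries. It measured 1.08, 0.726 and 1.29 FPKM in PHZ BM HSC and 1.60 and 2.12 FPKM in PHZ SP HSC, and so, as for Tfrc, both splenic libraries lay above all 6 marrow libraries.

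The log2 fold change of Steap3 in PHZ SP HSC over control BM HSC was 0.84 (SE 0.38, adjusted p = 0.307). Over PHZ BM HSC it was 0.50 (adjusted p = 0.616). All 8 libraries together held 559 reads of Steap3, and its fold change over control BM HSC rested on the scale: by voom on the recovered reads it was 3.04 (adjusted p = 0.240), against a control library at 0.

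Slc11a2, on chr15:100387898-100424209, minus strand, encodes DMT1, the transporter that carries reduced iron out of the endosome. It measured 0.225, 2.28 and 3.28 FPKM in control BM HSC, 1.59, 3.28 and 3.04 FPKM in PHZ BM HSC, and 1.72 and 3.25 FPKM in PHZ SP HSC. The 3 groups overlapped. The log2 fold change of splenic over control HSCs was 0.40 with a 95% interval of -0.67 to 1.46 (adjusted p = 0.737), and without control BM HSC 1 it was -0.14. Its exons overlap Gm5475 on the other strand, and whether reads were counted by strand is not given in the sources used here.

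Slc25a37 encodes mitoferrin-1, which imports iron into mitochondria, and lies on chr14:69241848-69285544, minus strand. Its level was 6.03, 4.59 and 7.70 FPKM in control BM HSC, 6.21, 6.65 and 6.53 FPKM in PHZ BM HSC, and 6.43 and 11.5 FPKM in PHZ SP HSC. Only PHZ SP HSC 2 stood above the marrow range. The log2 fold change over control BM HSC was 0.46 (SE 0.28, adjusted p = 0.461), and 0.09 without that library. Its exons overlap Gm27223 and Gm31748 on the other strand.

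Ferritin mRNAs were abundant in every group, with Ftl1 above Fth1 in all 8 libraries. Fth1 and Ftl1 encode the heavy chain, which oxidizes iron for storage, and the light chain, which supports the mineral core. By FPKM, Ftl1 ranked 21st to 31st and Fth1 53rd to 72nd among all genes listed in each library. Both genes have processed pseudogenes, so reads may have been split between near-identical copies, and their absolute levels are uncertain.

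Fth1, on chr19:9980600-9985111, plus strand, measured 352, 371 and 326 FPKM in control BM HSC, 352, 361 and 469 FPKM in PHZ BM HSC, and 367 and 325 FPKM in PHZ SP HSC. The groups overlapped, with PHZ BM HSC 3 above the rest. In splenic against control HSCs the log2 fold change was -0.02 (SE 0.14, adjusted p = 0.975), with a 95% interval of -0.33 to 0.30. That interval lies below the Tfrc interval of 1.21 to 2.86 in the same comparison.

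Ftl1, on chr7:45457944-45459886, minus strand, measured 639, 629 and 631 FPKM in control BM HSC, 787, 759 and 861 FPKM in PHZ BM HSC, and 620 and 571 FPKM in PHZ SP HSC. The 3 groups did not overlap: the PHZ marrow libraries were highest and the splenic libraries lowest. In PHZ SP HSC over control BM HSC the log2 fold change was -0.09 (95% interval -0.31 to 0.13, adjusted p = 0.716).

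The larger Ftl1 differences involved PHZ BM HSC and did not pass the threshold. PHZ BM HSC was higher than control BM HSC by 0.34 on the log2 scale (SE 0.09, adjusted p = 0.0821). PHZ SP HSC differed from PHZ BM HSC by -0.43 (SE 0.10, adjusted p = 0.0787). After quantile normalization the Ftl1 difference between the marrow groups was 0, and that of splenic against control HSCs was -0.38 (adjusted p = 0.0773) in place of -0.09. Exons of Ftl1 overlap those of Gm10252 on the other strand and Gm22133 on the same strand.

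The ratio of the ferritin chains stayed between 1.69 and 2.24. Ftl1 over Fth1 in FPKM was 1.82, 1.69 and 1.94 in control BM HSC, 2.24, 2.10 and 1.84 in PHZ BM HSC, and 1.69 and 1.76 in PHZ SP HSC. PHZ SP HSC 1 lay just below the lowest control library, and PHZ SP HSC 2 and PHZ BM HSC 3 lay within the control range. Tfrc per 100 FPKM of Fth1 was 0.183, 0.535 and 1.02 in control BM HSC, 1.02, 0.867 and 1.11 in PHZ BM HSC, and 2.58 and 3.49 in PHZ SP HSC.

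Ncoa4 encodes the receptor that delivers ferritin to the lysosome so that its iron can be released, and lies on chr14:32159879-32179855, plus strand. It measured 6.03, 5.24 and 4.37 FPKM in control BM HSC, 9.57, 9.49 and 5.21 FPKM in PHZ BM HSC, and 6.77 and 6.32 FPKM in PHZ SP HSC. PHZ BM HSC 1 and 2 stood above all other libraries, whereas PHZ BM HSC 3 lay within the control range. The log2 fold change was 0.52 in PHZ BM HSC over control BM HSC (SE 0.25, adjusted p = 0.331) and 0.29 in PHZ SP HSC over control BM HSC (SE 0.28, adjusted p = 0.662).

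Slc40a1, on chr1:45908070-45926532, minus strand, encodes ferroportin, the iron exporter of the cell membrane. It measured 0.212, 0.458 and 1.09 FPKM in control BM HSC, 0.592, 0.834 and 1.13 FPKM in PHZ BM HSC, and 0.952 and 2.94 FPKM in PHZ SP HSC. The groups overlapped, and the splenic mean rested on PHZ SP HSC 2. The log2 fold change of splenic over control HSCs was 0.84 (SE 0.39, adjusted p = 0.319), and 0.34 without that library.

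Aco1 encodes iron regulatory protein 1, which acts as a cytosolic aconitase when it holds an iron-sulfur cluster, and lies on chr4:40143265-40199009, plus strand. It measured 1.16, 5.04 and 4.97 FPKM in control BM HSC, 3.67, 5.89 and 5.76 FPKM in PHZ BM HSC, and 3.90 and 2.91 FPKM in PHZ SP HSC. The groups overlapped, with control BM HSC 1 at the bottom on 51 reads. The log2 fold change of splenic over control HSCs was 0.03 (95% interval -0.89 to 0.96, adjusted p = 0.980), and -0.46 without that control library.

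Ireb2 encodes iron regulatory protein 2, which is degraded when iron is plentiful, and lies on chr9:54862658-54912534, plus strand. It measured 6.77, 10.4 and 9.46 FPKM in control BM HSC, 5.94, 6.37 and 5.86 FPKM in PHZ BM HSC, and 5.80 and 7.88 FPKM in PHZ SP HSC. All PHZ BM HSC libraries lay below all control libraries, and the splenic libraries overlapped both groups. The log2 difference was -0.47 in PHZ BM HSC against control BM HSC (SE 0.22, adjusted p = 0.319) and -0.33 in splenic against control HSCs (SE 0.25, adjusted p = 0.560).

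The regulatory proteins are known to be controlled mainly as proteins, and mRNA levels do not measure that activity.

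Across the 10 genes, splenic and control libraries did not overlap for 4 (Tfrc, Steap3, Ftl1 and Ncoa4), where 28.9% of all genes tested did not overlap. Splenic and PHZ marrow libraries did not overlap for 3 (Tfrc, Steap3 and Ftl1), against 34.8% of all genes. The marrow groups did not overlap for 2 (Ftl1 and Ireb2), against 23.9% of all genes. The median log2 fold change over the 10 genes was 0.34 in splenic over control HSCs and 0.29 without Tfrc, beside a median of -0.001 over all genes tested. Between the marrow groups it was as large, 0.34 with and 0.34 without Tfrc (all genes 0.01), and in splenic over PHZ marrow HSCs it was 0.04 with and -0.06 without Tfrc (all genes -0.02).

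**Figure D2:**
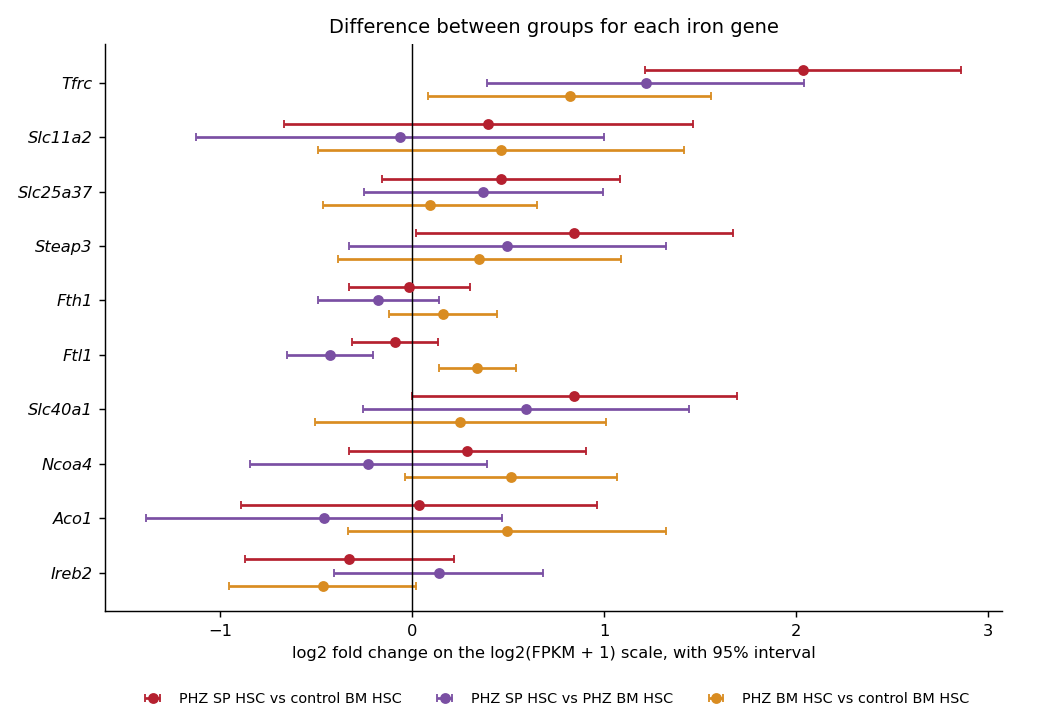
Log2 fold change on the log2(FPKM + 1) scale (horizontal axis) of each iron gene in the 3 comparisons; points are limma estimates and bars 95% intervals before adjustment over genes. Tfrc in PHZ SP HSC over control BM HSC lies at 2.04 with an interval of 1.21 to 2.86, and the Fth1 interval of -0.33 to 0.30 spans 0.

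Whether Tfrc moved apart from ferritin and the regulators was tested directly, on the difference between the log2 values of Tfrc and each other gene in the same library. The planned limma fit pools the variance over rows that all contain Tfrc, which counts 8 libraries as 56730 degrees of freedom. The same differences were therefore also tested without pooling, with 5 residual degrees of freedom. The latter fit was chosen after seeing the data.

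In splenic over control HSCs, Tfrc changed more than Fth1 by 2.05 on the log2 scale (95% interval without pooling 0.88 to 3.22) and more than Ftl1 by 2.13 (0.99 to 3.26). The adjusted p-values without pooling were 0.0195 and 0.0188. Tfrc also changed more than Aco1 by 2.0 (1.13 to 2.87, adjusted p = 0.0180) and more than Ireb2 by 2.36 (1.46 to 3.27, adjusted p = 0.0179). Slc11a2, at 1.64, and Slc25a37, at 1.57, completed the 6 of 9 genes called by both fits. In the pooled fit, the calls for Slc11a2 (adjusted p = 0.0788) and Slc25a37 (0.0958) were lost without PHZ SP HSC 1, and that for Slc11a2 also with a pseudocount of 0.1 and by voom on the recovered reads (adjusted p up to 0.0730).

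The fits differed for the remaining 3 genes of the same comparison. Ncoa4, at 1.75, was called with pooling only (adjusted p = 0.0028 with and 0.0565 without), and that call was lost without PHZ SP HSC 2 (0.0549). Steap3, at 1.19, was called without pooling only (0.0520 with and 0.0179 without), as was Slc40a1, at 1.19 (0.0527 with and 0.0245 without). By voom on the recovered reads the sign for Steap3 turned, at -0.50 (adjusted p = 0.691).

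These counts must be read against all genes. The Tfrc change differed from that of 95.6% of the 11346 other genes with pooling and of 84.5% without. The 7 and 8 of 9 iron genes called are a share near that background, and nothing particular to the iron genes is read from it.

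In PHZ SP HSC over PHZ BM HSC, Tfrc minus gene was 1.39 for Fth1, 1.64 for Ftl1, 1.44 for Ncoa4 and 1.68 for Aco1, and these 4 were called with pooling, where 43.8% of all genes were. Without pooling no gene passed among all tested (0%), with 4733 genes at an unadjusted p under 0.05 and the smallest adjusted p at 0.0620. The count with pooling was unstable in this comparison: 4970 genes were called, and 107, 99, 113 and 101 when PHZ BM HSC 1, PHZ BM HSC 2, PHZ SP HSC 1 or PHZ SP HSC 2 was left out. In PHZ BM HSC over control BM HSC, none of the 9 genes was called by either fit, against 4.85% of all genes with pooling and 0% without (2133 genes at an unadjusted p under 0.05). The largest of these differences was 1.29, against Ireb2 (adjusted p = 0.0904 with pooling and 0.256 without).

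**Figure D3:**
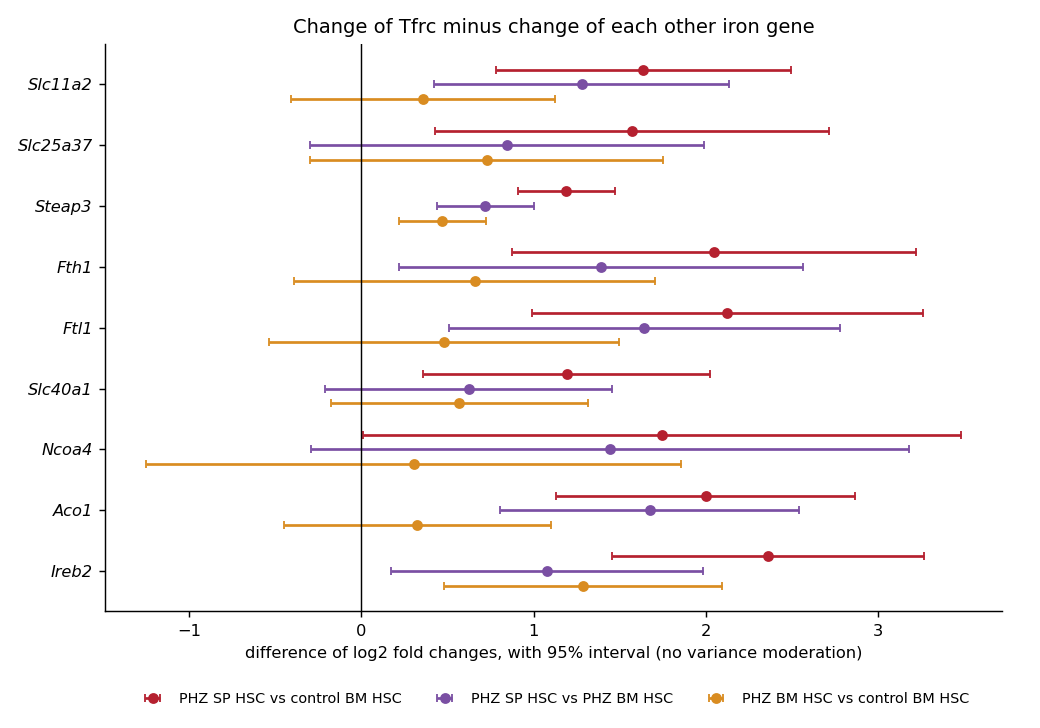
Change of Tfrc minus the change of each other iron gene (horizontal axis, difference of log2 fold changes) in the 3 comparisons; bars are 95% intervals without pooling of the variance and before adjustment. In PHZ SP HSC over control BM HSC all 9 differences lie above 0, from 1.19 for Steap3 and Slc40a1 to 2.36 for Ireb2.

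The wider set of iron genes gave no further call. Of 55 iron genes on 7 lists, 47 were listed in all tables and 38 were tested. Besides the 10 genes, 28 were tested and 0 passed in any comparison by limma. At an unadjusted p under 0.05 there were 3 of them in splenic over control HSCs, 6 in splenic over PHZ marrow HSCs and 3 between the marrow groups, where 15.8%, 13.5% and 16.6% of all genes tested were under it.

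Of the 8 import genes tested, all had a positive log2 fold change in splenic over control HSCs with a median of 0.43, but 1 passed the test, Tfrc. Of 5 storage genes and chaperones, 1 was positive and the median was -0.09. The 15 genes of iron-sulfur cluster assembly had a median of 0.01, with 8 positive and 0 past the threshold. Of all genes tested in splenic over control HSCs, 49.9% were positive and 0.758% passed, with a median of -0.001. Positive in splenic over PHZ marrow HSCs (48.2% of all genes) were 6 import, 0 storage or chaperone and 8 assembly genes. Between the marrow groups (51.2% of all genes) they were 5, 4 and 6.

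Among the 8 mRNAs known to carry an iron-responsive element, 5 were positive in splenic over control HSCs, 1 of them past the threshold, and the median was 0.62. Of all genes tested there, 49.9% were positive and 0.758% passed. In splenic over PHZ marrow HSCs 4 of the 8 were positive (median 0.26), and between the marrow groups all 8 were (median 0.29). Alas2, the erythroid enzyme that starts heme synthesis, measured 3.45, 1.24 and 2.30 FPKM in control BM HSC, 2.66, 5.40 and 3.25 FPKM in PHZ BM HSC, and 5.81 and 7.12 FPKM in PHZ SP HSC. Its splenic libraries lay above all marrow libraries, and its log2 fold change over control BM HSC was 1.21 (SE 0.34, adjusted p = 0.122).

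Epas1 encodes HIF-2α, an oxygen-sensitive transcription factor. It was listed at 0 in control BM HSC 2, measured 0.0183 and 0.278 FPKM in the other control libraries, 0.171, 0.114 and 0.249 FPKM in PHZ BM HSC, and 1.42 and 1.27 FPKM in PHZ SP HSC. Both splenic libraries lay above the marrow, with a log2 fold change over control BM HSC of 1.10 (SE 0.33, adjusted p = 0.137). Epas1 met the filter on low values only through the splenic libraries. Its higher splenic level was thus a condition of being tested, as also in the counts of its lists. By voom on the recovered reads the log2 fold change of Epas1 was 4.85 (adjusted p = 0.0845), and without the filter on low values its adjusted p was 0.0426. Because Epas1 was named from the filtered test, these values are not independent support.

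The other largest differences were in iron-sulfur cluster assembly. Nfs1, the cysteine desulfurase that supplies sulfur, measured 18.9 and 17.2 FPKM in PHZ SP HSC and 6.54 to 13.7 FPKM in the marrow libraries. Its log2 difference from PHZ BM HSC was 0.90 (SE 0.28, adjusted p = 0.177). Between the marrow groups, Lyrm4, which encodes a partner of that enzyme, differed by -0.70 in PHZ BM HSC (adjusted p = 0.186) and Isca2, a late-acting assembly factor, by 0.58 (adjusted p = 0.123).

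**Figure D4:**
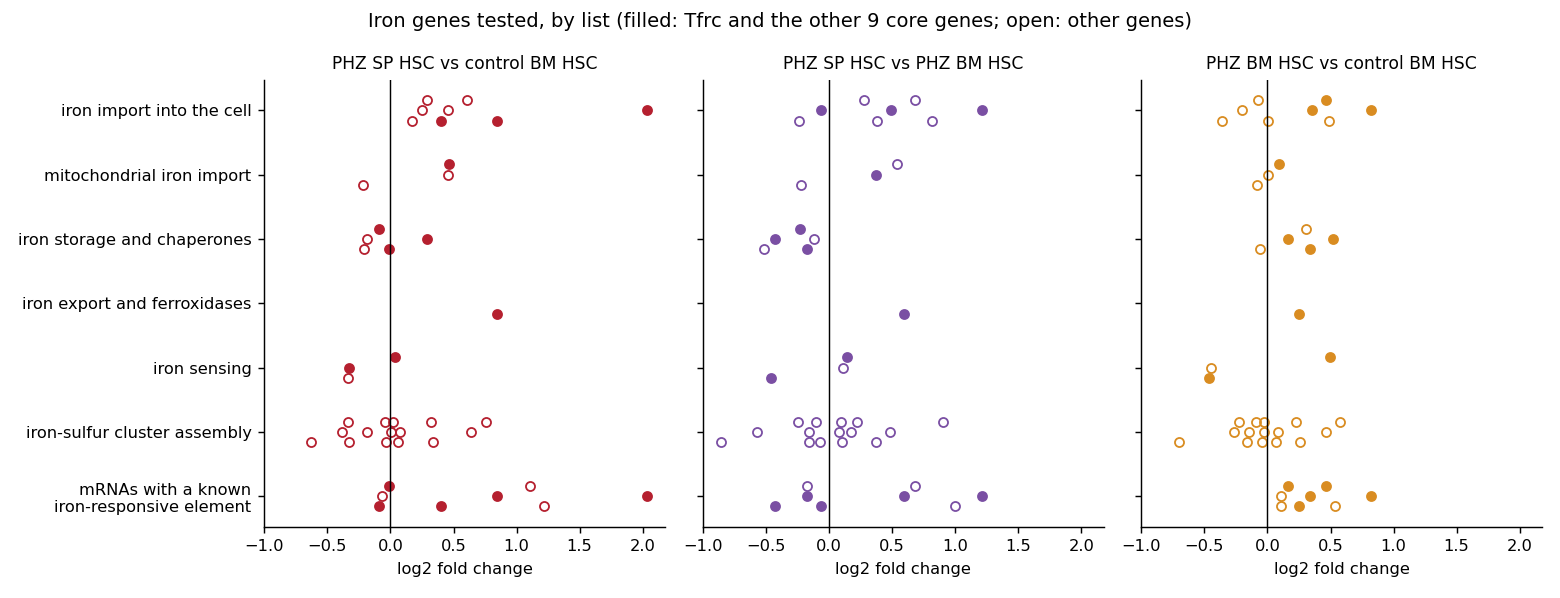
Log2 fold change on the log2(FPKM + 1) scale (horizontal axis) of the 38 iron genes tested, by list, in each comparison; filled points are the 10 core genes, open points other genes, and a gene on 2 lists appears in both. In PHZ SP HSC over control BM HSC, Tfrc at 2.04 stands apart from the import list, whose median is 0.43.

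The genes with the profile most like that of Tfrc were found by the root mean square distance between mean-centred log2(FPKM + 1) values over the 8 libraries, among 11346 other genes. They were Ermap, a red cell membrane protein (distance 0.275), Uba3, a subunit of the NEDD8-activating enzyme (0.278), Tmem62 (0.279), Ctss, the lysosomal protease cathepsin S (0.323), and Cd200r4 (0.334). Ermap lay at 0.920 FPKM or less in the marrow and at 2.52 and 3.88 FPKM in PHZ SP HSC. It met the filter on low values only through the splenic libraries, which favoured a profile high in spleen. Of the 9 other iron genes, Steap3 came nearest at rank 71 (0.471) and Slc40a1 next at rank 182 (0.542). Fth1 was at rank 4498, Ftl1 at 5407 and Ireb2 at 6785.

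Erythroid genes were also higher in splenic HSCs. Of 12 erythroid markers tested, 7 rose in PHZ SP HSC over control BM HSC and 0 fell, where 0.758% of all genes tested passed in either direction. Ermap, among these 7, met the filter on low values only through the splenic libraries, so its higher splenic level was a condition of being tested. In PHZ SP HSC over PHZ BM HSC 3 of the 12 rose (0.978% of all genes), and between the marrow groups 0 passed by limma. Ermap, Slc4a1 and Cldn13 among the 7, and Slc4a1 and Cldn13 among the 3, were picked out by the study on these samples. Those calls are therefore not independent evidence. The summed level of the 13 markers listed was 143 to 296 FPKM in control BM HSC, 198 to 361 FPKM in PHZ BM HSC and 981 and 1188 FPKM in PHZ SP HSC. Klf1, an erythroid transcription factor, measured 0.802, 1.30 and 3.05 FPKM in control BM HSC, 3.49, 1.95 and 2.22 FPKM in PHZ BM HSC, and 10.1 and 8.54 FPKM in PHZ SP HSC (log2 fold change over control 2.01, adjusted p = 0.0361). Gata1 (log2 fold change 0.88, adjusted p = 0.293) and Epor, the erythropoietin receptor (0.61, adjusted p = 0.572), did not pass. The part of erythroid cells or of an erythroid programme within HSCs in the Tfrc difference was not tested.

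The libraries were also checked for markers of other cell types. Summed neutrophil markers were 433 to 753 FPKM in control BM HSC, 512 to 1072 FPKM in PHZ BM HSC and 1426 to 1826 FPKM in PHZ SP HSC, with 1 of 12, S100a8, past the threshold in splenic over control HSCs (0.758% of all genes). All 12 had a positive log2 fold change there, with a median of 1.12, and the median over PHZ BM HSC was 1.41 with S100a8 again the 1 called (0.978% of all genes). Between the marrow groups 1 of the 12, Prtn3, was called, higher in PHZ BM HSC (2.74% of all genes). Summed macrophage markers were 14.6 to 30.1 FPKM in control BM HSC, 13.7 to 86.7 FPKM in PHZ BM HSC and 49.0 and 73.0 FPKM in PHZ SP HSC, with 0 of 7 past the threshold by limma and a median log2 fold change of 0.11 in splenic over control HSCs. Single genes made up most of the highest sums: Hmox1 63.1 FPKM in PHZ BM HSC 3, and Cd68 34.4 and 57.6 FPKM in PHZ SP HSC. Of 2 T and NK cell markers tested, Klrb1c rose in splenic HSCs over control BM HSC (0.758% of all genes) and over PHZ BM HSC (0.978%). The summed level of the 9 listed was 20.5 to 61.2 FPKM in control BM HSC and 31.5 to 50.3 FPKM in PHZ BM HSC. In PHZ SP HSC it was 43.9 and 53.9 FPKM, within the control range. The 3 B cell markers tested were positive in splenic over control HSCs with a median of 1.19, and 0 passed by limma. Of 7 megakaryocyte markers, Pf4 and Ppbp fell in PHZ BM HSC against control BM HSC (2.74% of all genes called) and 0 passed by limma in the splenic comparisons. The part of these cell types in the iron gene values was not tested.

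Within the macrophage list, the lysosomal protein Cd68 measured 0 to 8.48 FPKM in control BM HSC and 4.93, 9.74 and 16.7 FPKM in PHZ BM HSC. In PHZ SP HSC Cd68 measured 34.4 and 57.6 FPKM (adjusted p = 0.0582 over control BM HSC by limma). The defining surface markers Adgre1, at 0.287 FPKM or less, and Csf1r, at 0.567 FPKM or less, were near 0 in all libraries, and C1qa was 0 to 3.15 FPKM in control BM HSC, 0 to 1.74 FPKM in PHZ BM HSC and 1.20 and 1.94 FPKM in PHZ SP HSC. Hmox1, the heme oxygenase that frees iron from heme, was 63.1 FPKM in PHZ BM HSC 3 and 10.4 FPKM or less elsewhere; it was singled out after its values were seen. PHZ BM HSC 3 also had the highest Fth1 and Ftl1, and without it the log2 difference between the marrow groups was 0.03 for Fth1 and 0.29 for Ftl1.

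Proliferation genes were lowest in PHZ BM HSC, and Tfrc was lowest on average in control BM HSC. The summed level of the proliferation genes was 386 to 595 FPKM in control BM HSC, 147 to 273 FPKM in PHZ BM HSC and 427 to 429 FPKM in PHZ SP HSC. Of 20 tested, 13 fell in PHZ BM HSC against control BM HSC, where 2.74% of all genes passed and the Tfrc log2 difference was 0.82 and not called. In PHZ SP HSC over PHZ BM HSC all 20 had a positive log2 fold change, as did Tfrc at 1.22, with a median of 1.34 and 5 past the threshold (0.978% of all genes). The part of proliferation in the Tfrc differences was not tested in any comparison. In splenic over control HSCs 0 of 20 passed by limma, with a median log2 fold change of -0.09.

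**Figure D5:**
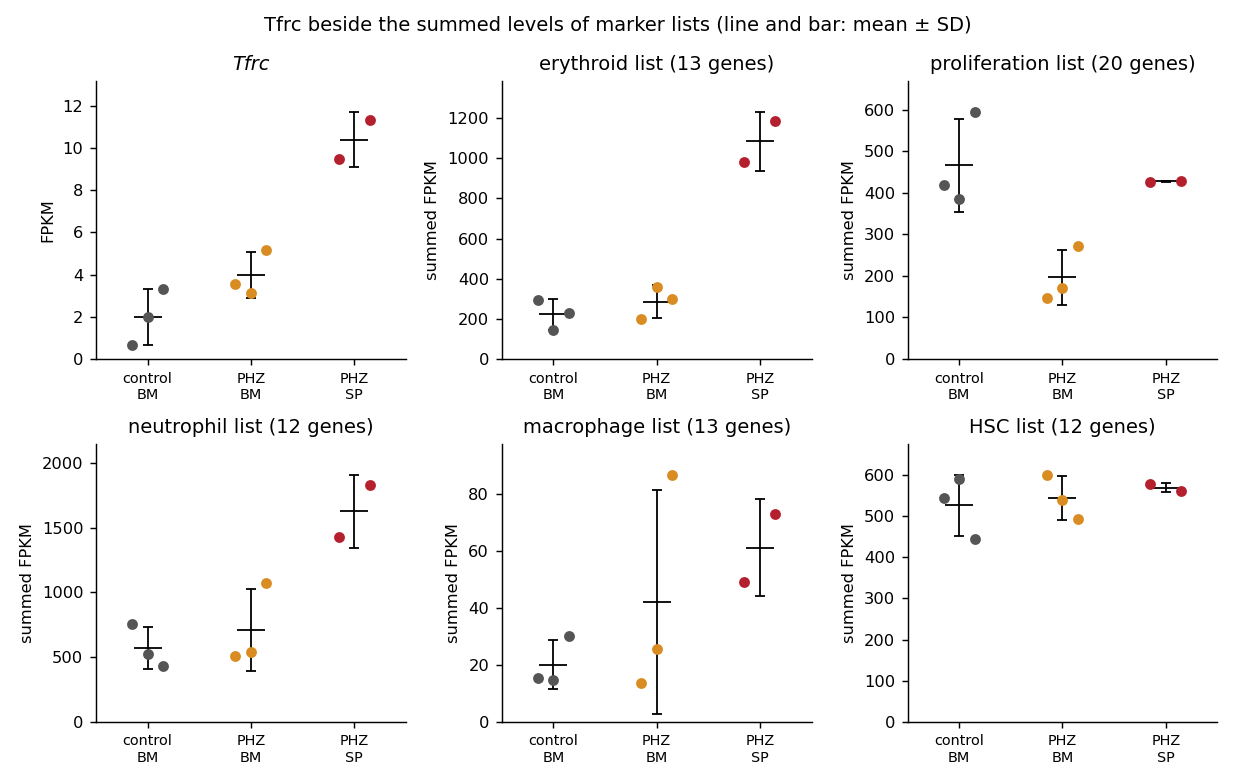
Tfrc in FPKM and the summed FPKM of 5 marker lists (vertical axes, from 0) in every library, with the mean ± SD of each group. Tfrc and the erythroid sum are highest in the 2 splenic libraries, the proliferation sum is lowest in PHZ BM HSC at 147 to 273 FPKM, and the HSC sum stays between 445 and 601 FPKM.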

How the data were processed

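RNA of sorted HSCs was made into SMART-Seq2 and Nextera XT libraries. The authors mapped reads to mm10 with STAR; how reads were assigned to genes, with which annotation and whether by strand, is not given in the sources used here. The authors deposited FPKM values in 3 tables, keyed by Entrez gene ID. The scaling of the PHZ BM HSC and PHZ SP HSC tables matched common factors over both (gap 0%). That of the control table matched factors over the control and splenic libraries (gap 0%), so the tables did not all share the same factors. The authors' 2 tables of DESeq2 comparisons (fold changes and p-values) were not used. Columns named WBM in the marrow tables were matched to the BM HSC samples by table, group and number.

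Low FPKM values were whole multiples of 1 read, which gave whole reads for all 108151 values above 0 (100%, within 0.001 reads, or 0.02 reads for the highest counts); for 306 genes reads are known only up to a common factor. Common median-of-ratios factors over all libraries replaced those of the tables, which moved no library by more than 1.05%. Genes with at least 1 FPKM in 2 libraries were tested with limma 3.58.1 in R 4.3.3 on log2(FPKM + 1), with trend and robust options, all 8 libraries fitted together by group, two-sided, Benjamini-Hochberg adjusted over 11347 genes at 0.05. Python 3.11.15 was used for the rest. The script was tested on simulated data.

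Genes and lists were chosen with earlier results of these data known. Named were the 10 genes; other listed iron genes past the threshold or among the 3 largest fold changes of a comparison; the 5 genes nearest to Tfrc in profile; and Klf1, Gata1, Epor, Adgre1, Cd68, Csf1r and C1qa. Alternatives were the deposited FPKM, quantile normalization, a pseudocount of 0.1, no filter on low values, only the 2 groups compared, voom on the recovered reads, a replicate block, and leaving out each library. Reads are not independent molecules, since the protocol has no molecular identifiers.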

Additional observations from a re-analysis of the deposited data

How the results depend on the processing

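The Tfrc difference of splenic over control HSCs kept its direction under all 15 alternatives and its call under 4 of the 7 that used all libraries (log2 1.97 to 2.58, adjusted p 0.0201 to 0.105) and 3 of the 8 that left out a library (1.66 to 2.36, adjusted p 0.0252 to 0.195). The number of the 10 genes called there was 0 with a pseudocount of 0.1, with no filter on low values and with only the 2 groups compared, and 0 to 1 when a library was left out. With 2 splenic libraries, differences of low genes are poorly resolved.

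Splenic over control HSCs gave 86 calls among all genes, against 55 after quantile normalization, 39 with a pseudocount of 0.1, 46 without the filter, 42 with the 2 groups alone and 14 to 83 when a library was left out. Splenic over PHZ marrow HSCs gave 111, against 62 without the filter, 65 by voom and 6 to 146 without a library. The marrow comparison gave 311, against 205 without the filter and 115 to 306 without a library. Tfrc minus each other gene, splenic over PHZ marrow HSCs, gave 4970 calls, against 236 (pseudocount 0.1), 7693 (no filter), 9344 (2 groups), 155 (voom), 0 (no pooling) and 99 to 9381 (without a library). Between the marrow groups it gave 550, against 1343 (quantile), 222 (pseudocount 0.1), 280 (2 groups), 191 (voom), 0 (no pooling) and 94 to 6272 (without a library). Splenic over control HSCs gave 8036 to 10949 without a library. The causes were not tested.

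Same-numbered libraries did not deviate together (correlations of deviations from -0.008 to 0.060), so the numbers were not taken to pair them. With a replicate block the splenic over control count was 73, Tfrc kept its call (adjusted p = 0.0201), and Tfrc minus each other gene gave 9939 and 3814 calls in the other comparisons. The block turned the sign of Fth1 in splenic over control HSCs (0.025) and of Slc11a2 in splenic over PHZ marrow HSCs (0.16).

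Of 668 recomputed fold changes 22 changed sign, and of 432 Tfrc differences 4 did. None of the values that changed sign passed the threshold. Calls changed for 9 of the fold changes and 60 of the Tfrc differences (lost or gained). In splenic over control HSCs Isca2 was -0.0033 with the deposited FPKM, -0.088 after quantile normalization and -0.020 by voom. Epas1 between the marrow groups was -0.10 after quantile normalization. Tfrc minus Steap3 by voom was -0.50 in splenic over control HSCs and -1.05 between the marrow groups. Leaving out libraries gave these ranges that cross 0. Splenic over control HSCs: Slc11a2 -0.14 to 0.76, Fth1 -0.10 to 0.073, Aco1 -0.46 to 0.29, Isca2 -0.12 to 0.15. Splenic over PHZ marrow HSCs: Slc11a2 -0.39 to 0.26, Slc25a37 -0.0053 to 0.75, Ireb2 -0.053 to 0.33. Marrow groups: Slc11a2 -0.077 to 0.83, Slc25a37 -0.069 to 0.25, Nfs1 -0.44 to 0.044, Tfrc minus Ncoa4 -0.17 to 0.73.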
